A study of Mus musculus with 3 samples.

Results

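The genes described here are the sensors of the unfolded protein response and the related CREB3 factors of the mouse: the sensors Ern1, Ern2, Atf6 and Eif2ak3, the transcription factor Xbp1, and the membrane-anchored factors Creb3, Creb3l1, Creb3l2, Creb3l3 and Creb3l4. They were chosen by name as members of this pathway and family, and all 10 were found among the 24170 genes to which the deposited transcripts could be matched. Messenger RNA had been measured in epithelial cells that were sorted by flow cytometry from the upper small intestine of C57BL/6 mice, in 3 libraries, 1 pooled library per group. GIP-GFP held GFP-labelled cells that express GIP, an incretin hormone. Ngn3-TOMATO and Ngn3-negative came from male mice bred from Ngn3-Cre and ROSA26-LoxP-STOP-LoxP-tomato parents. Cells negative for the blood cell marker CD45 were sorted there into those with tomato fluorescence and those without it. No CD45 gate and no sex is stated for the GIP-GFP sort. Because Cre marks a cell's descendants for good, Ngn3-TOMATO holds every cell type that arose from Ngn3-expressing progenitors, whether or not Ngn3 is still expressed. Each library combined, per the labels' protocols, equal amounts of RNA from individual samples, prepared from the villus fraction. How many mice went into a pool is not stated there.

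When unfolded proteins accumulate in the endoplasmic reticulum (ER), membrane sensors of the ER signal to the nucleus. IRE1 alpha (Ern1) and its gut and airway paralog IRE1 beta (Ern2) cut an intron from Xbp1 messenger RNA, PERK (Eif2ak3) slows translation by phosphorylating eIF2 alpha, and ATF6 travels to the Golgi, where proteases free its DNA-binding part. The CREB3 factors are built like ATF6 and are released by the same proteases, and in the gut this machinery is best known from mucus-secreting goblet cells, antimicrobial Paneth cells and lipid-exporting enterocytes.

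Levels are given in scaled FPKM, which is the deposited FPKM divided by 1 number common to all libraries. FPKM counts fragments per kilobase of transcript, so that levels of different transcripts can be compared per length. The level of a gene is the sum over its transcript models. Where models cover only parts of a gene, as for Xbp1 and Creb3l2, this sum can overstate the level per length. Comparisons of these genes with other genes carry that limit. The deposited values also carry a term for the depth of each library. With 1 library per group there is no check between replicates and no test. Intervals are 95% intervals from the deposited FPKM limits and cover only counting and read assignment within these libraries. Differences are log2 ratios after adding 1 scaled FPKM to each value. The listed transcripts held 592.1 Mb of read bases for GIP-GFP, 1379.9 Mb for Ngn3-TOMATO and 1029.7 Mb for Ngn3-negative, so GIP-GFP values are the least precise. As a check of the labels, Gip stood at 239400 scaled FPKM in GIP-GFP, against 27780 in Ngn3-TOMATO and against 723.4 in Ngn3-negative, and Gip made up 23.0% of the summed level of GIP-GFP. Neurog3, the gene of Ngn3, stood at 4.44, 23.8 and 13.7 scaled FPKM in the same order, so its messenger RNA was also listed in the tomato-negative library. In such pools, fewer cells of a type and less RNA per cell cannot be told apart.

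Ern2, Creb3l4 and Creb3l3 differed most between the libraries among the 10 genes. Ern2 and Creb3l4 were highest in Ngn3-TOMATO and lowest in GIP-GFP, and Creb3l3 was highest in Ngn3-negative. In Ngn3-TOMATO against Ngn3-negative, 5 of the 10 genes were at least 2-fold higher (Ern2, Creb3l1, Creb3l4, Atf6 and Eif2ak3), where 19.2% of the 13451 genes compared were that much higher. Creb3l3 alone among the 10 was at least 2-fold lower there, where 9.9% of all genes were. In GIP-GFP against Ngn3-negative, Ern1 was at least 2-fold higher, beside 21.0% of 13469 genes, and Ern2, Creb3l3 and Creb3l4 were at least 2-fold lower, beside 13.8% of all genes. In GIP-GFP against Ngn3-TOMATO, Ern2, Creb3l4, Creb3l1 and Atf6 were at least 2-fold lower, beside 8.73% of 13739 genes, and none of the 10 was 2-fold higher, beside 8.01%. Counting both directions, 6, 4 and 4 of the 10 genes were 2-fold apart, beside 29.1%, 34.8% and 16.7% of all genes. The median log2 ratio of the 10 genes was 0.94, 0.31 and -0.57 in these comparisons, in the order given, and that of all genes compared was 0.04, 0.07 and 0.08. The comparisons share libraries and are therefore not independent of each other. When each library was instead scaled to the same total, the share of 2-fold calls that were higher went from 66.0% to 53.3% over all genes in Ngn3-TOMATO against Ngn3-negative, and from 60.5% to 51.2% in GIP-GFP against Ngn3-negative.

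**Figure D1:**
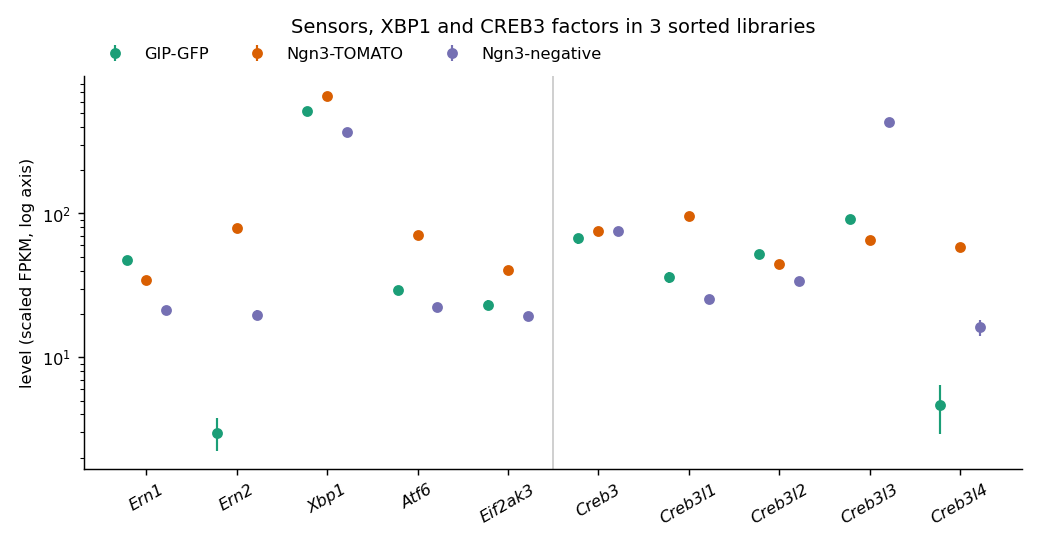
Level of each of the 10 genes (scaled FPKM, log axis) in the 3 libraries, 1 point per pooled library, with 95% counting intervals as bars where they are wider than the point. Sensors and Xbp1 stand left of the grey line and CREB3 factors right of it, with Ern2 and Creb3l4 lowest in GIP-GFP at 3.0 and 4.67 scaled FPKM and Creb3l3 highest in Ngn3-negative at 433.

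Xbp1 was the most abundant of the 10 genes in both sorted reporter populations. Its level was 513 scaled FPKM in GIP-GFP (95% interval 492 to 534), 659 in Ngn3-TOMATO (644 to 674) and 366 in Ngn3-negative (353 to 379). These levels lay above those of 99.3%, 99.3% and 98.5% of all genes in the same order. The log2 ratio was 0.85 in Ngn3-TOMATO against Ngn3-negative (0.79 to 0.91) and 0.49 in GIP-GFP against Ngn3-negative (0.41 to 0.56), both within 2-fold. XBP1 is a transcription factor of secretory cells, and its active form is made only after IRE1 has cut 26 bases out of exon 4. The excised bases lie at chr11:5524279-5524304 (GRCm38, plus strand). They are shown here in capitals, from GENCODE M21, with 18 bases on either side (chr11:5524261-5524322), because they are the substrate of Ern1 and Ern2.

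Xbp1 exon 4: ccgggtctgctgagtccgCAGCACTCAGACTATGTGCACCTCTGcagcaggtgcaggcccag

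The deposited transcripts do not show how much of the messenger RNA lacked these bases. Models of 1800 and 1731 bases span the gene and differ by 69 bases, not by the excised 26. The 1800-base model held 18.3% of the level in GIP-GFP, against 26.3% in Ngn3-TOMATO and against 24.3% in Ngn3-negative, and the 1731-base model held 23.0%, 22.3% and 20.0%. A 968-base model of the 3′ end (chr11:5524924-5525891) held the rest, 58.7%, 51.5% and 55.7%. By summed FPKM, the 3′ end model was therefore above 50% in all 3 libraries. FPKM divides by length, so this short model holds a larger share of FPKM than of reads.

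Ern1 was the only sensor among the 4 with its highest level in GIP-GFP. The gene lies on chromosome 11 (chr11:106394650-106487852, minus strand, mm10) and encodes IRE1 alpha, the kinase and ribonuclease present in most cell types. It stood at 47.2 scaled FPKM in GIP-GFP (43.8 to 50.5), 34.6 in Ngn3-TOMATO (33.0 to 36.3) and 21.2 in Ngn3-negative (19.6 to 22.7). The 3 intervals did not overlap. Its log2 ratio was 1.12 in GIP-GFP against Ngn3-negative, with an interval of 0.98 to 1.26 that reached below 2-fold, and 0.69 in Ngn3-TOMATO against Ngn3-negative (0.57 to 0.80). The excess in GIP-GFP over Ngn3-TOMATO, a log2 ratio of 0.43 (0.32 to 0.55), lay in 1 transcript model. The 3169-base model stood at 20.3 scaled FPKM in GIP-GFP (17.8 to 22.7), 5.38 in Ngn3-TOMATO (4.52 to 6.23) and 5.44 in Ngn3-negative (4.49 to 6.38). That is 42.9%, 15.5% and 25.7% of the gene. The 3976-base model stood at 26.9, 29.3 and 15.7 scaled FPKM, so on this model alone the log2 ratio of GIP-GFP to Ngn3-TOMATO was -0.12 and that of GIP-GFP to Ngn3-negative was 0.74. Both models share their outer ends in the files, and Cufflinks had to divide reads between them.

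Ern2 encodes IRE1 beta, which is known from the mucosal epithelium of gut and airway and above all from goblet cells. The gene lies at chr7:122169893-122186207 on the minus strand. Its level was 3.0 scaled FPKM in GIP-GFP (2.21 to 3.78), 78.8 in Ngn3-TOMATO (75.7 to 81.8) and 19.8 in Ngn3-negative (18.4 to 21.2). The GIP-GFP value rests on 2.48 kb of read bases. The log2 ratio was 1.94 in Ngn3-TOMATO against Ngn3-negative (1.83 to 2.05), -2.38 in GIP-GFP against Ngn3-negative (-2.68 to -2.08) and -4.32 in GIP-GFP against Ngn3-TOMATO (-4.61 to -4.03). GIP-GFP was the highest library for Ern1 and the lowest for Ern2, while both genes were higher in Ngn3-TOMATO than in Ngn3-negative. In GIP-GFP the level of Ern1 was above that of Ern2, in Ngn3-TOMATO it was below, and in Ngn3-negative the 2 genes did not differ beyond their counting interval (difference 1.34 scaled FPKM, -0.72 to 3.41). A 2973-base model of Ern2, 3 bases longer than the 2970-base model, held 38.2% of the gene in Ngn3-TOMATO and was listed at 0 in the other libraries, where the shorter model held the whole level. A listed 0 can be a failed assignment of reads between such similar models. On the 2970-base model alone the log2 ratio was 1.26 in Ngn3-TOMATO against Ngn3-negative and -3.64 in GIP-GFP against Ngn3-TOMATO.

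Atf6 and Eif2ak3, the remaining sensors, were both highest in Ngn3-TOMATO. Atf6 (chr1:170704674-170867771, minus strand) stood at 29.2 scaled FPKM in GIP-GFP (27.8 to 30.7), 71.2 in Ngn3-TOMATO (69.8 to 72.7) and 22.2 in Ngn3-negative (21.3 to 23.2). Atf6 had a log2 ratio of 1.64 in Ngn3-TOMATO against Ngn3-negative (1.57 to 1.70), 0.38 in GIP-GFP against Ngn3-negative (0.29 to 0.47) and -1.26 in GIP-GFP against Ngn3-TOMATO (-1.33 to -1.18). GIP-GFP lay far nearer to Ngn3-negative than to Ngn3-TOMATO for this gene. Eif2ak3 (chr6:70844515-70905245, plus strand), the gene of PERK, stood at 23.2 scaled FPKM in GIP-GFP (21.4 to 24.9), 40.4 in Ngn3-TOMATO (39.0 to 41.9) and 19.4 in Ngn3-negative (18.2 to 20.6). Its log2 ratio of 1.02 in Ngn3-TOMATO against Ngn3-negative had an interval of 0.93 to 1.12, and it fell within 2-fold at 0.79 with equal totals, at 0.99 with libraries scaled by the median ratio and at 0.90 with a pseudocount of 5. Its other log2 ratios were 0.25 in GIP-GFP against Ngn3-negative and -0.78 in GIP-GFP against Ngn3-TOMATO. Eif2ak3 shares 485 exonic bases with the opposite-strand gene Gm43292, and since no strand is stated for the reads, these could not be assigned to either gene.

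**Figure D2:**
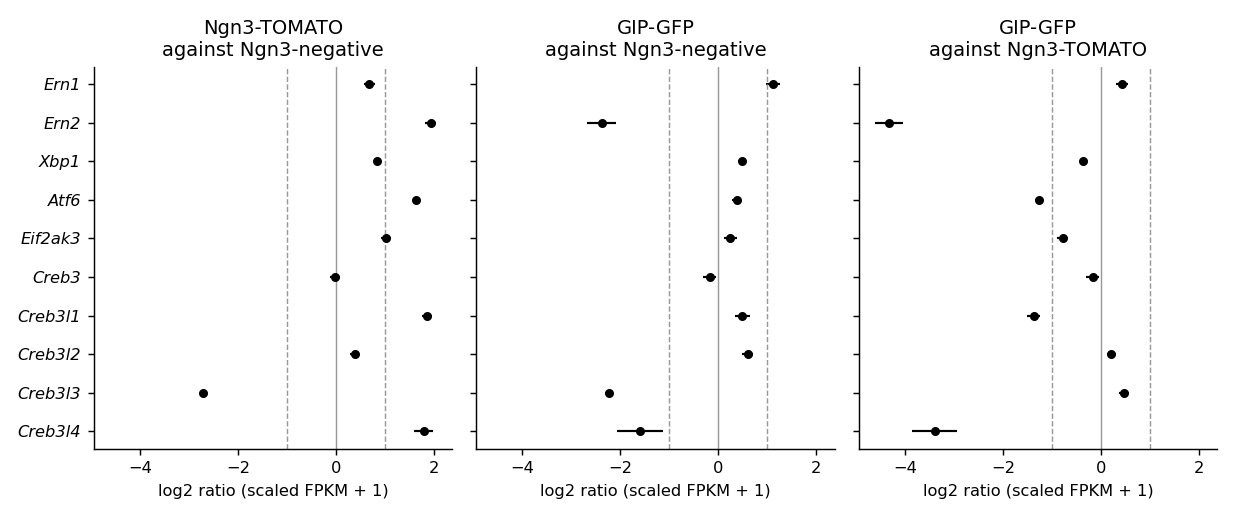
Log2 ratio of scaled FPKM + 1 for each of the 10 genes in the 3 comparisons, with 95% counting intervals as bars and dashed lines at 2-fold. Creb3l3 lies left of the lower line against Ngn3-negative in both reporter libraries (-2.71 and -2.24), and Ern2 and Creb3l4 lie on opposite sides of 0 in the left and middle panels.

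Among the CREB3 factors, Creb3l4 and Creb3l1 were highest in Ngn3-TOMATO. Creb3l4 (chr3:90237500-90243512, minus strand) encodes a factor known from the prostate in humans and the testis in mice. It stood at 4.67 scaled FPKM in GIP-GFP (2.92 to 6.42), 58.6 in Ngn3-TOMATO (54.9 to 62.3) and 16.2 in Ngn3-negative (14.1 to 18.3). The GIP-GFP value rests on 1.82 kb of read bases, the least of any gene and library among these 10, and did not differ from that of Ern2 beyond the counting interval (difference 1.67, -0.25 to 3.59). Its log2 ratio was 1.79 in Ngn3-TOMATO against Ngn3-negative (1.60 to 1.99), -1.60 in GIP-GFP against Ngn3-negative (-2.08 to -1.12) and -3.39 in GIP-GFP against Ngn3-TOMATO (-3.85 to -2.94). The order of the libraries was the same as for Ern2.

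Reads of Creb3l4 were divided between 2 start sites. A 1452-base model starting at base 90243121 stood at 2.58 scaled FPKM in GIP-GFP (1.33 to 3.83), 42.8 in Ngn3-TOMATO (39.8 to 45.7) and 13.7 in Ngn3-negative (11.9 to 15.6). A 1336-base model starting downstream at base 90242548 stood at 2.09 scaled FPKM (0.86 to 3.31), 15.8 (13.6 to 18.1) and 2.43 (1.39 to 3.47) in the same order. The upstream start held 55.3%, 73.0% and 85.0% of the gene, and in GIP-GFP the intervals of the 2 models overlapped. The 250 bases before the start site nearest to each model are shown because they precede the start sites of the 2 models. They come from RefSeq (GRCm38.p6), run 5′ to 3′ on the minus strand, and show in capitals CCACG, the stretch that ATF6 binds in ER stress response elements. The first ends 22 bases from the start of the 1452-base model (chr3:90243144-90243393) and the second 2 bases from that of the 1336-base model (chr3:90242551-90242800).

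Creb3l4 upstream start: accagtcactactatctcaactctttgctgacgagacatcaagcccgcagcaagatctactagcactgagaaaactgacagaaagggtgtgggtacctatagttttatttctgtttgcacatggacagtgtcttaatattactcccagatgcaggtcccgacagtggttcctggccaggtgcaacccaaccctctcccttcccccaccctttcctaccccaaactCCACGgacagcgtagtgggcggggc
Creb3l4 downstream start: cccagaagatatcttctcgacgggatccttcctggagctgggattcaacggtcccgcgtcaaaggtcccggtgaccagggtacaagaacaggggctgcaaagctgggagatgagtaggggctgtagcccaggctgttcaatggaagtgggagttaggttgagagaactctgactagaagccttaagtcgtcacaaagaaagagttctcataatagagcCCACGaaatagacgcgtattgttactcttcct

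Each of these promoters held 1 CCACG, from base -25 to -21 of the upstream start site and from base -32 to -28 of the downstream start site. Promoters in the RefSeq table were found for 7 of the 10 genes, 10 promoters in all, each of 300 bases (250 before and 50 after the start site), and were searched on both strands. CCACG was in 5 of these 10 promoters and in 32.8% of the 32851 promoters of the table. The full ER stress response element, CCAAT and CCACG with 9 bases between them, was in 0 of the 10 and 0.119% of all. Its second form, ATTGG and CCACG with 1 base between them, was in 0 of the 10 and 0.0365% of all. TGACGTGG, the core bound by XBP1 and ATF6, was in 0 of the 10 and 0.676% of all, and TGACGTCA, the cyclic AMP response element, in 0 of the 10 and 1.79% of all. The shorter CCACG is contained in the first 2 of these elements and, read on the other strand, in TGACGTGG, so their matches would overlap.

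Creb3l1 (chr2:91982328-92024502, minus strand) encodes OASIS, which is known from bone-forming cells and from maturing goblet cells of the colon. Its level was 36.2 scaled FPKM in GIP-GFP (33.1 to 39.2), 95.3 in Ngn3-TOMATO (92.2 to 98.4) and 25.5 in Ngn3-negative (23.6 to 27.3). The log2 ratio was 1.86 in Ngn3-TOMATO against Ngn3-negative (1.76 to 1.97), 0.49 in GIP-GFP against Ngn3-negative (0.34 to 0.65) and -1.37 in GIP-GFP against Ngn3-TOMATO (-1.50 to -1.25). Unlike Ern2 and Creb3l4, Creb3l1 was higher in GIP-GFP than in Ngn3-negative, as Atf6 was.

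Creb3l3 was the only gene of the 10 that was at least 2-fold lower in both reporter libraries than in Ngn3-negative under the scaling used. The gene lies at chr10:81084324-81098874 on the minus strand and encodes CREB-H, a factor of liver and small intestine that controls lipoprotein and triglyceride genes. It stood at 91.1 scaled FPKM in GIP-GFP (86.3 to 96.0), 65.4 in Ngn3-TOMATO (62.8 to 67.9) and 433 in Ngn3-negative (426 to 441). In Ngn3-negative it was the most abundant of the 10 genes, above Xbp1 by 67.4 scaled FPKM (52.5 to 82.3). Its log2 ratio was -2.71 in Ngn3-TOMATO against Ngn3-negative (-2.77 to -2.65), below that of all but 0.7% of genes, and -2.24 in GIP-GFP against Ngn3-negative (-2.32 to -2.16). The reporter libraries differed from each other by a log2 ratio of 0.47 (0.38 to 0.57), with GIP-GFP the higher.

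Creb3 and Creb3l2 varied least among the 10 genes. Creb3 (chr4:43562332-43567060, plus strand), which encodes the founding factor of the family, stood at 67.1 scaled FPKM in GIP-GFP (61.8 to 72.5), 75.6 in Ngn3-TOMATO (72.0 to 79.1) and 76.0 in Ngn3-negative (72.0 to 80.1). Its log2 ratio in Ngn3-TOMATO against Ngn3-negative was -0.01 with an interval of -0.11 to 0.09, and it was 0.12 when libraries were scaled to equal totals of all but the 50 most abundant genes. The exons of Creb3 overlap those of opposite-strand genes by 133 bases for Gba2 and 360 bases for Tln1, so part of its reads may belong to those genes. Creb3l2 (chr6:37327255-37442146, minus strand), whose factor is known from cartilage, where it controls the vesicle coat gene Sec23a, stood at 52.0 scaled FPKM in GIP-GFP (49.1 to 54.9), 44.6 in Ngn3-TOMATO (42.8 to 46.3) and 34.0 in Ngn3-negative (32.2 to 35.7). Its log2 ratios were 0.38 in Ngn3-TOMATO against Ngn3-negative (0.29 to 0.47) and 0.60 in GIP-GFP against Ngn3-negative (0.49 to 0.71). A 3909-base model of the 3′ end of Creb3l2 held 56.2%, 54.4% and 50.8% of its level and a 3318-base model with the remaining exons held 43.8%, 45.6% and 49.2%. Because these models cover different parts of the gene, their sum can overstate the level of Creb3l2 per length.

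**Figure D3:**
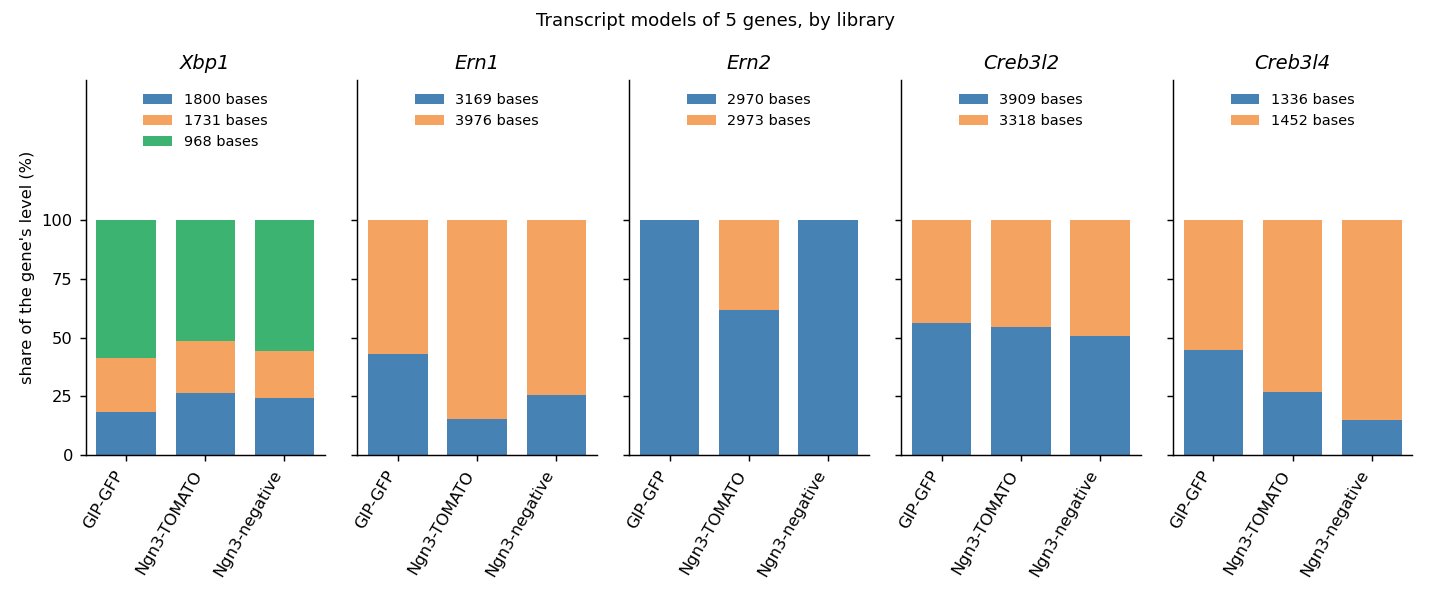
Share of each gene's level (%) held by its transcript models in each library for the 5 genes with more than 1 model above 5%, with model lengths in the legends. The 3169-base model of Ern1 takes 42.9% in GIP-GFP against 15.5% and 25.7% in the other libraries, and the 2973-base model of Ern2 appears in Ngn3-TOMATO.

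The order of the 10 genes differed between the libraries. In GIP-GFP the levels ran from Xbp1 over Creb3l3, Creb3, Creb3l2, Ern1, Creb3l1, Atf6 and Eif2ak3 to Creb3l4 and Ern2. In Ngn3-TOMATO they ran from Xbp1 over Creb3l1, Ern2, Creb3, Atf6, Creb3l3, Creb3l4, Creb3l2 and Eif2ak3 to Ern1, and Ern2 and Creb3 did not differ beyond their interval. In Ngn3-negative they ran from Creb3l3 over Xbp1, Creb3, Creb3l2, Creb3l1, Atf6, Ern1, Ern2 and Eif2ak3 to Creb3l4, and the neighbours Atf6 and Ern1, Ern1 and Ern2, and Ern2 and Eif2ak3 did not differ beyond theirs. The highest gene was 171 times the lowest in GIP-GFP, 19.0 times in Ngn3-TOMATO and 26.8 times in Ngn3-negative.

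Markers of some cell types had the same order of libraries as some of these genes. All 8 goblet cell markers were higher by 2-fold or more in Ngn3-TOMATO than in Ngn3-negative, and 7 of 8 were at least 2-fold lower in GIP-GFP than in Ngn3-negative, all but Galnt12. Their summed level was 5115 scaled FPKM in GIP-GFP, against 166400 in Ngn3-TOMATO and against 29910 in Ngn3-negative, the same order as for Ern2 and Creb3l4. The mucin Muc2 stood at 247.5, 6984 and 1403. The 6 Paneth cell markers summed to 2317, 27140 and 4814 scaled FPKM, and all 6 were higher by 2-fold or more in Ngn3-TOMATO than in Ngn3-negative. In GIP-GFP against Ngn3-negative, 3 of 6 Paneth markers were at least 2-fold lower. The median log2 ratio there was -0.98 for Paneth and -1.94 for goblet markers, beside -2.38 for Ern2 and -1.60 for Creb3l4. The median log2 ratio in Ngn3-TOMATO against Ngn3-negative was 2.28 for goblet markers and 2.45 for Paneth markers, against 1.94 for Ern2, 1.86 for Creb3l1 and 1.79 for Creb3l4. No goblet or Paneth marker was at 0 in any library, and in Ngn3-TOMATO, which the labels call enteroendocrine cells, these lists made up 15.7% and 2.56% of the summed level. Their part in the levels of Ern2, Creb3l4, Creb3l1 and Atf6 was not tested.

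Of 9 enterocyte markers, 8 were at least 2-fold lower in Ngn3-TOMATO than in Ngn3-negative and 8 in GIP-GFP. Their summed level was 11650 scaled FPKM in GIP-GFP, against 8270 in Ngn3-TOMATO and against 38960 in Ngn3-negative, the same order as for Creb3l3. None was at 0, and the values of Sis and Anpep carried no usable limits. Their median log2 ratio was -2.26 in Ngn3-TOMATO and -1.96 in GIP-GFP against Ngn3-negative, beside -2.71 and -2.24 for Creb3l3. Their part in the level of Creb3l3 was not tested. All 7 enteroendocrine markers were at least 2-fold higher in both reporter libraries than in Ngn3-negative, with sums of 16750 in GIP-GFP, against 24680 in Ngn3-TOMATO and against 388.9 in Ngn3-negative. Xbp1, Atf6, Eif2ak3 and Creb3l1 had the order of this sum, with Ngn3-TOMATO first and GIP-GFP next, and the part of these markers in their levels was not tested. Ern1 and Creb3l2, the genes of the 10 that were highest in GIP-GFP, had another order than this sum. The single markers were divided. Chga, Chgb, Neurod1 and Pcsk1 had the order of the sum. Scg2, Scg5 and Cpe had that of Ern1 and Creb3l2, with GIP-GFP first and Ngn3-TOMATO next. Of the 7 markers, 3 were at least 2-fold higher in GIP-GFP than in Ngn3-TOMATO and 1 was lower. Their part in the levels of Ern1 and Creb3l2 was not tested.

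The remaining marker lists were low or had another order. The 5 T lymphocyte markers summed to 285.1 scaled FPKM in GIP-GFP, against 45.5 in Ngn3-TOMATO and against 116.0 in Ngn3-negative, with Ern1 also highest in GIP-GFP, and their part in the level of Ern1 was not tested. The 5 stem and cycling markers summed to 660.2, 1111 and 2856, the 6 tuft cell markers to 19.3, 141.0 and 69.5, and the 5 pancreatic acinar markers to 4.93, 6.06 and 175.7. The tuft cell sum, though low, had the order of Ern2 and Creb3l4. All 6 tuft cell markers were at least 2-fold lower in GIP-GFP than in Ngn3-TOMATO. In Ngn3-TOMATO against Ngn3-negative 1 of 6 was that much higher. Their part in the levels of Ern2 and Creb3l4 was not tested. The 6 B and plasma cell markers measured summed to 9.46, 4.14 and 6.73, the myeloid markers to 15.5, 12.0 and 14.2, the stromal markers to 2.46, 10.7 and 1.80, the erythroid markers to 34.9, 55.2 and 197.2, and the Brunner gland markers to 1.61, 13.0 and 55.7. Il25 and Col1a1 were listed at 0 in GIP-GFP, Ighm in Ngn3-TOMATO and Ngn3-negative, and Adgre1 and Cela2a in both reporter libraries. Ighm stood at 6.05 scaled FPKM in GIP-GFP, and the other B and plasma cell markers measured were at 3.31 or less in each library. Their part in the level of Xbp1, on which plasma cells depend, was not tested.

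**Figure D4:**
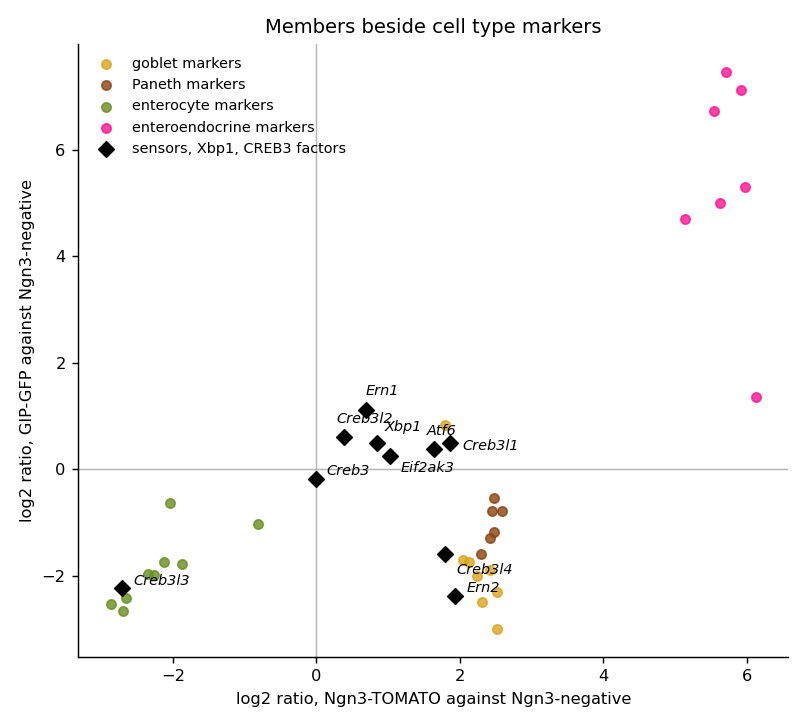
Log2 ratio for Ngn3-TOMATO against Ngn3-negative (horizontal) and for GIP-GFP against Ngn3-negative (vertical) for the 10 genes (black diamonds) and for goblet, Paneth, enterocyte and enteroendocrine markers (coloured points). Both axes share Ngn3-negative, so points are not independent across axes. Ern2 (1.94, -2.38) and Creb3l4 (1.79, -1.60) lie beside goblet and Paneth markers and Creb3l3 (-2.71, -2.24) among enterocyte markers, and no diamond lies among the enteroendocrine markers.

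Genes with the profile most like those of the 4 most variable genes were looked up among 10458 genes, by the distance between log2 levels centred on their mean over the 3 libraries. With 3 libraries this is a description only. The 5 nearest to Ern2 were Copz2, Ano7, Atoh1, Ccl6 and Bcas1, at distances of 0.175 to 0.286. Copz2, the nearest, was listed at 0 in GIP-GFP, so its distance rests on the added 1 scaled FPKM there. Atoh1, the factor that directs progenitors to the secretory lineage, stood at 5.09 scaled FPKM in GIP-GFP, against 95.2 in Ngn3-TOMATO and against 26.7 in Ngn3-negative. The 5 nearest to Creb3l4 were Galnt5, Proc, Chst4, Slc2a10 and Kcnk6, at 0.024 to 0.093, and Chst4, a sulfotransferase, stood at 8.50, 98.2 and 29.2 scaled FPKM. Near Creb3l3 lay Mme, 2010106E10Rik, Btnl2 and Lama3, at 0.062 to 0.111. Mme, a membrane peptidase, stood at 55.35, 41.4 and 260.6 scaled FPKM. The 5 nearest to Creb3l1 were Gsdme, Sgsm3, Mtss1, Tecpr1 and Id3, at 0.017 to 0.113.

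The genes that act with or downstream of the sensors were examined in 10 lists of 102 genes in all. Of these, 99 could be compared between Ngn3-TOMATO and Ngn3-negative, of which 11 were higher and 7 lower by 2-fold or more, with a median log2 ratio of 0.14. In GIP-GFP against Ngn3-negative, 11 of 97 were higher and 11 lower by that much, and the median was 0.16. Beside these counts and those of the single lists below, 29.1% and 34.8% of all genes were 2-fold apart in the same comparisons. Of all genes, 19.2% were that much higher and 9.9% lower in Ngn3-TOMATO than in Ngn3-negative. In GIP-GFP against Ngn3-negative, 21.0% were higher and 13.8% lower. Most of the listed genes were within 2-fold in both.

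In the IRE1 branch, Agr2, a disulfide isomerase of goblet and Paneth cells that binds IRE1 beta, stood at 291.7 scaled FPKM in GIP-GFP, against 3685 in Ngn3-TOMATO and against 894.9 in Ngn3-negative. That is the order of Ern2, and in Ngn3-TOMATO against Ngn3-negative the log2 ratio was 2.04 (2.00 to 2.08). Of the 8 partners and splicing genes, Agr2 was the only one 2-fold apart in either comparison against Ngn3-negative. Map3k5, a kinase downstream of IRE1, stood at 12.1, 19.1 and 10.6 scaled FPKM, and Tmbim6, which restrains IRE1 alpha, at 736.7, 834.2 and 1111. Both were within 2-fold.

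Among 16 XBP1 targets of ER import and folding, 0 were 2-fold apart in Ngn3-TOMATO against Ngn3-negative and 2 were at least 2-fold higher in GIP-GFP, with median log2 ratios of 0.16 and 0.49. The first median was -0.08 with equal totals. The 2 genes were Dnajb9, an ER co-chaperone that acts on IRE1, with 153.0 scaled FPKM in GIP-GFP, against 93.7 in Ngn3-TOMATO and against 49.0 in Ngn3-negative, and Spcs3, a subunit of signal peptidase, with 162.4, 88.9 and 63.7. Their log2 ratios of GIP-GFP to Ngn3-negative were 1.62 (1.51 to 1.74) and 1.34 (1.26 to 1.41). Both were highest in GIP-GFP, as Ern1 was, whereas Xbp1 itself was highest in Ngn3-TOMATO. Spcs1, another subunit of signal peptidase, stood at 287.7, 167.9 and 146.9, and Ssr2, the most abundant gene of the list, at 515.3, 430.7 and 363.8, and both were within 2-fold.

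The 9 ATF6 target chaperones had median log2 ratios of 0.25 in Ngn3-TOMATO and 0.55 in GIP-GFP against Ngn3-negative, and 0.01 and 0.34 with equal totals. In Ngn3-TOMATO 0 of 9 were 2-fold apart, although Atf6 itself was, and in GIP-GFP Hyou1 was the 1 gene that was. Hyou1, an ER chaperone of the HSP70 family, stood at 156.2 scaled FPKM in GIP-GFP, against 107.2 in Ngn3-TOMATO and against 68.4 in Ngn3-negative. Hspa5, the gene of BiP, which holds the sensors inactive, stood at 949.9, 1024 and 572.8 scaled FPKM, a log2 ratio of 0.84 (0.81 to 0.87) in Ngn3-TOMATO and 0.73 (0.69 to 0.76) in GIP-GFP against Ngn3-negative. Hsp90b1 stood at 927.4, 566.1 and 504.2, Calr at 1051, 869.3 and 716.6, and Creld2 at 89.3, 55.4 and 53.0, within 2-fold throughout.

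The Golgi proteases that release ATF6 and the CREB3 factors varied little. Mbtps1, the first protease, stood at 90.7 scaled FPKM in GIP-GFP, against 71.5 in Ngn3-TOMATO and against 66.7 in Ngn3-negative. Of the 8 proteases and partners, 0 were 2-fold apart in Ngn3-TOMATO against Ngn3-negative and Nfyb, a subunit of the factor NF-Y, was 2-fold higher in GIP-GFP, with 71.2, 38.6 and 29.4 scaled FPKM. The other NF-Y subunits did not share this order, with Nfya at 16.5, 27.9 and 26.7 and Nfyc at 13.0, 14.8 and 19.8. Crebzf, a partner of the CREB3 factors, stood at 59.4, 47.0 and 36.2, and Atf6b, the paralog of Atf6, at 43.0, 49.5 and 30.6, where the authors' status for part of Atf6b in Ngn3-TOMATO was a failed estimate.

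In the PERK branch, Ppp1r15a, the stress-induced subunit of the phosphatase that reverses PERK, stood at 57.6 scaled FPKM in GIP-GFP, against 141.7 in Ngn3-TOMATO and against 15.9 in Ngn3-negative. Its log2 ratio was 3.08 in Ngn3-TOMATO (2.94 to 3.22) and 1.80 in GIP-GFP (1.63 to 1.96) against Ngn3-negative, and it was the only gene of 6 kinases, substrate and phosphatase subunits that was 2-fold apart there. The constitutive subunit Ppp1r15b stood at 76.2, 111.2 and 104.1, and the related kinases Eif2ak1 at 54.6, 48.0 and 78.7 and Eif2ak2 at 16.4, 17.7 and 26.1.

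Of the 12 genes of ATF4 and its targets, 10 could be compared in Ngn3-TOMATO against Ngn3-negative, of which 5 were at least 2-fold higher and 0 lower, with a median log2 ratio of 1.07. This median was 0.84 with equal totals, 0.78 with a pseudocount of 5, 0.89 without the filter on low values and 1.25 on the most abundant transcripts. In GIP-GFP against Ngn3-negative 2 of 9 were higher and 3 lower, and the median was -0.77. That median was -0.14 without the filter on low values, -0.35 on the most abundant transcripts and -0.40 with a pseudocount of 5. Atf4 stood at 298.1 scaled FPKM in GIP-GFP, against 485.5 in Ngn3-TOMATO and against 286.4 in Ngn3-negative. Atf3, a factor also induced by other kinds of stress, stood at 185.7, 723.8 and 88.9, a log2 ratio of 3.01 in Ngn3-TOMATO (2.94 to 3.09) and 1.05 in GIP-GFP (0.95 to 1.16) against Ngn3-negative. Psat1, an enzyme of serine synthesis, stood at 7.53, 89.7 and 15.7, and Nupr1, a stress-induced chromatin factor, at 8.35, 133.7 and 26.2, which is the order of Ern2. Trib3, an inhibitor of ATF4, stood at 2.75, 5.23 and 10.9, and was highest in Ngn3-negative. Both models of Atf5 were failed estimates listed at 0 in Ngn3-negative, so Atf5 was not compared there.

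Of 16 genes of ER-associated degradation, 0 were 2-fold apart in either comparison against Ngn3-negative, with median log2 ratios of 0.21 in Ngn3-TOMATO, which was -0.03 with equal totals, and 0.18 in GIP-GFP. Herpud1, a stress-induced scaffold of this pathway, stood at 203.8 scaled FPKM in GIP-GFP, against 256.5 in Ngn3-TOMATO and against 147.5 in Ngn3-negative. Derl2, a channel component, was 2-fold higher in GIP-GFP than in Ngn3-TOMATO, with 77.3, 35.1 and 54.8 scaled FPKM. Edem1 stood at 33.5, 48.3 and 54.2, and Edem3 at 32.5, 63.0 and 35.4, of which the Ngn3-TOMATO value of Edem3 includes a failed estimate.

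Of 7 oxidative folding enzymes, 2 were higher by 2-fold or more in Ngn3-TOMATO and 3 in GIP-GFP than in Ngn3-negative, with median log2 ratios of 0.80 and 0.46. Txndc5 stood at 313.6 scaled FPKM in GIP-GFP, against 906.0 in Ngn3-TOMATO and against 268.6 in Ngn3-negative. Pdia2, a disulfide isomerase of the exocrine pancreas in humans, stood at 15.7, 4.06 and 1.33, and Pdia5 at 80.1, 43.0 and 22.0. P4hb, the most abundant, stood at 961.0, 979.5 and 1729 and was highest in Ngn3-negative. Ero1b, the oxidase of pancreatic beta cells, was the other gene higher in GIP-GFP, with 28.9, 14.8 and 8.11 scaled FPKM.

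Of 14 genes of the COPII vesicle coat, which carries ATF6 and CREB3 factors from the ER to the Golgi, 0 were higher and 4 at least 2-fold lower in each reporter library than in Ngn3-negative, with median log2 ratios of -0.53 in Ngn3-TOMATO and -0.39 in GIP-GFP. These medians were -0.19 and -0.08 over transcripts that share an annotated end, and -0.77 and -0.60 with equal totals. Sec23a, which is controlled by Creb3l2 in cartilage, stood at 46.0 scaled FPKM in GIP-GFP, against 37.3 in Ngn3-TOMATO and against 112.0 in Ngn3-negative. Its log2 ratio in Ngn3-TOMATO against Ngn3-negative was -1.56 (-1.63 to -1.49), and Creb3l2 had the opposite sign at 0.38. Its paralog Sec23b stood at 105.3, 74.9 and 65.1, of which the GIP-GFP value includes a failed estimate. Sec31a, the most abundant, stood at 355.2, 255.1 and 344.2. Mia3, counted among the lower genes, was listed at 0 in both reporter libraries and at 35.8 in Ngn3-negative. A listed 0 can be a failed assignment of reads, and without Mia3 the lower genes number 3 in each comparison. Sec23a had the order of the enterocyte markers given above, whose part in its level was not tested.

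Of 6 CREB3L3 targets named in liver, 5 could be compared in Ngn3-TOMATO against Ngn3-negative. Of these, 3 were at least 2-fold lower, as was Creb3l3, and 2 higher. The median log2 ratio was -1.61, and -2.37 in GIP-GFP against Ngn3-negative, but -0.71 and -1.15 without the filter on low values. Apoa4, an apolipoprotein of chylomicrons, stood at 946.5 scaled FPKM in GIP-GFP, against 671.1 in Ngn3-TOMATO and against 5480 in Ngn3-negative. Its log2 ratio was -3.03 in Ngn3-TOMATO (-3.05 to -3.01) and -2.53 in GIP-GFP (-2.56 to -2.50) against Ngn3-negative. Cidec, a lipid droplet protein, stood at 9.75, 8.04 and 61.3, and Apoc2 at 33.7, 51.5 and 159.3. The log2 ratio of Apoc2 against Ngn3-negative was -1.61 in Ngn3-TOMATO (-2.39 to -0.83) and -2.21 in GIP-GFP (-3.56 to -0.86). Both intervals reached within 2-fold. Apoa5, a regulator of plasma triglycerides, had another order, with 0.0724, 14.3 and 0.145 scaled FPKM. Hamp, the other higher gene, stood at 2.21 and 3.57 in the reporter libraries and was listed at 0 in Ngn3-negative, and Fgf21 was at 0.143 or less in all 3 libraries. Apoa4 and Cidec had the order of the enterocyte markers too, whose part in their levels was not tested.

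**Figure D5:**
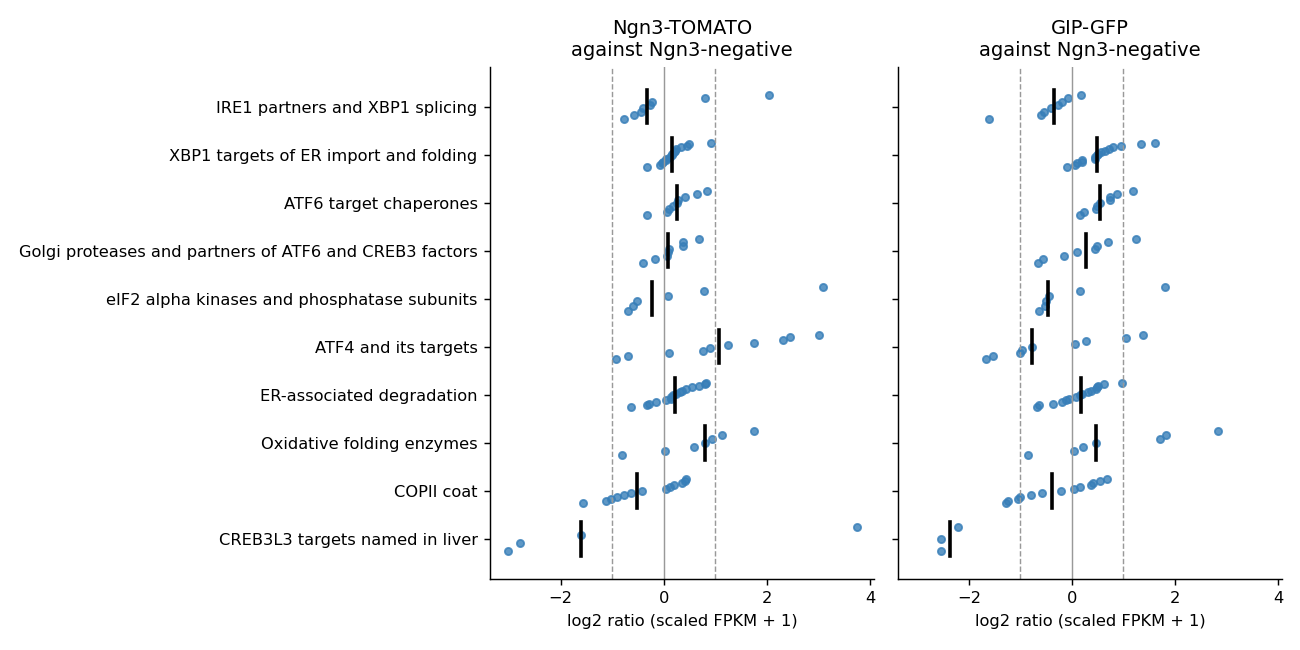
Log2 ratio of scaled FPKM + 1 for the genes of the 10 pathway lists in Ngn3-TOMATO (left) and GIP-GFP (right) against Ngn3-negative, 1 point per gene, with black bars at the median of all genes compared in the list and dashed lines at 2-fold. Genes listed at 0 in either library are not drawn. ATF4 and its targets have a median of 1.07 on the left and -0.77 on the right, and the CREB3L3 targets have medians of -1.61 and -2.37. Without the filter on low values these are 0.89, -0.14, -0.71 and -1.15.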

How the data were processed

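Messenger RNA of 3 sorted populations was read from unamplified, polyadenylated RNA, 1 pooled library per group, so no test was made. Per the submitters' processing notes, FastQC, TopHat 1.5.0 and Cufflinks (version not given in the sources used here) were used with mm10. Per the file headers, the authors deposited 59120 transcripts with length in bases, coverage (a signal of mean read depth), FPKM with lower and upper limits, and a status. The FPKM they deposited sum to 10160000000 to 10740000000 per library, so the library term is not that of the name. Limits were taken as 2 standard errors.

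Transcripts carried no gene names. They were matched to GENCODE M21 without strand, requiring 50% of the span and taking ends as shared within 10 bases, and 54503 received a symbol. FPKM of transcripts of at least 200 bases were summed per gene and divided by 8221, which sets the mean total to 1000000. Mitochondrial transcripts were left out. Values with too many reads to process, and genes listed at 0 through failed estimates, were treated as missing (3 genes in GIP-GFP, 12 genes in Ngn3-TOMATO, 14 genes in Ngn3-negative). Failed or low-data estimates above 0 were kept without an interval. Genes at 1 scaled FPKM in at least 1 library of a comparison were compared with a pseudocount of 1, which understates differences of low genes. Calculations used Python 3.11.15, pandas 2.3.3 and numpy 2.4.6, with matplotlib 3.10.9 for plots, and were tested on simulated data.

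The 10 genes, the lists and markers were chosen with earlier results of these data known. In each pathway list the text names the most abundant gene and, per comparison, the 2 farthest from 0 among genes at 10 scaled FPKM or more, and further genes of a list were named after their values were seen. Igha, a plasma cell marker, was not matched and was not analysed here. Some genes that this rule selects are not reported here.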

Additional observations from a re-analysis of the deposited data

How the results depend on the processing

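Among the 10 genes, the count at least 2-fold higher in GIP-GFP than in Ngn3-negative went from 1 to 0, and the count apart from 4 to 3, with equal totals, with the most abundant transcript of each gene alone and with a pseudocount of 5. That gene was Ern1, at a log2 ratio of 0.92, 0.74 and 1.00 (rounded from just below the threshold). Ern1 in GIP-GFP against Ngn3-TOMATO reversed, from 0.43 to -0.12, on its most abundant transcript, because its 3169-base model is left out. Eif2ak3 in Ngn3-TOMATO against Ngn3-negative fell within 2-fold in 3 of 10 settings (0.79 to 0.99), which took the count higher there from 5 to 4 and the count apart from 6 to 5. Other counts of the 10 genes did not change in these settings. The other 28 log2 ratios of the 10 genes kept their side of 2-fold in all 10 settings, and Creb3, near 0, changed sign. The all-gene median was -0.19, -0.13 and 0.11 with equal totals and 0.16, 0.20 and 0.08 without the 50 most abundant genes, against 0.04, 0.07 and 0.08, in the order of comparisons above. The share of all genes 2-fold apart (29.1%, 34.8% and 16.7%) was 17.8%, 22.9% and 9.32% with a pseudocount of 5 and 16.2%, 19.4% and 9.53% without the filter on low values. The median of the eIF2 alpha kinase list went from -0.22 to 0.35 in Ngn3-TOMATO and from -0.47 to 0.11 in GIP-GFP against Ngn3-negative with transcripts that share an annotated end. Ern2 went from 1.94 to 1.26 in Ngn3-TOMATO against Ngn3-negative on its most abundant transcript. The medians of the ATF4, CREB3L3, COPII and ATF6 lists moved in the settings given with those lists, and some moved in further settings. Against Ngn3-negative, the oxidative folding median ranged from 0.53 to 0.91 in Ngn3-TOMATO and from 0.26 to 0.59 in GIP-GFP. The median of the XBP1 targets ranged from -0.08 to 0.29 and from 0.28 to 0.62 in the same order. Some medians of the remaining lists moved too. Apart from Ern1, the cause was not tested. Read bases over the longest model were an alternative chosen after seeing the data. Matching by exact intron chain was not run. No paired analysis was possible because each group has 1 library. Depth limits Creb3l4 and Ern2 in GIP-GFP.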
